A study of Mus musculus with 18 samples.

Results

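Genes that build the beating ciliary axoneme, and genes of the transport system that assembles cilia, were followed in the authors' deposited fold table of cytokine-treated mouse astrocytes. A gene was taken when its symbol began with Dnah, Dnaic, Dnali, Cfap, Rsph, Ift or Tekt and a number, or when it was Dynlrb2, Zbbx or Foxj1. This gave 45 of the table's 12205 genes. Of these, 31 were put in a motile axoneme class: 15 Cfap genes, 7 axonemal dynein genes, 6 radial spoke genes, and Foxj1, Zbbx and Dynlrb2. The other 14 are genes of intraflagellar transport (IFT). The motile class follows the symbols: Foxj1 is a transcription factor and no part of the axoneme, and Cfap20, Cfap36 and Cfap97 are not limited to motile cilia. No symbol of the table began with Dnali or Tekt and a number.

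The cells were primary astrocytes homozygous for the Eif2b5-R132H mutation, which lies in the epsilon subunit of eIF2B, the factor that recharges the translation initiation factor eIF2 with GTP. In order of time on the cytokines they were untreated, or were kept in TNFα (20 ng/ml) and IL-1β (0.25 ng/ml) for the final 24 hr or 48 hr of a culture of 120 hr. Each condition had 3 RNA-seq and 3 Ribo-seq libraries, from batches A, B and C, and all of them carried the mutation, the untreated ones too. The table gives 12 log2 folds of treated over untreated cells per gene: for mRNA, for ribosome-protected fragments (RPF, the mRNA pieces that ribosomes shield from nuclease) and for ribosome density (RD), at 24 hr and 48 hr, in the mutant and in the WT. The WT columns are the authors' comparison and their libraries are no samples of this series, so genotype and the set of cultures and libraries cannot be told apart in any mutant against WT value. All 10 astrocyte markers looked up had a row, among them Gfap, Aqp4 and Slc1a3. So did all 7 fibroblast and mural markers, and a row without levels does not show which cells were present.

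A motile cilium beats because dynein arms, which are motor complexes on the outer microtubule doublets, slide neighbouring doublets past each other. Radial spokes and a central pair of microtubules control when each arm acts, and the transcription factor Foxj1 switches on the genes for these parts. IFT trains carry building blocks along the axoneme, IFT-B towards the tip and IFT-A back to the base, and serve both motile cilia and the single non-motile primary cilium that astrocytes carry. In the brain, beating cilia are known from the ependymal cells that line the ventricles.

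RFX transcription factors are known to work beside Foxj1 at ciliary genes, so the upstream sequence of members was read for the RFX half-site GTTNCC, on both strands. Windows from RefSeq, build GRCm38.p6, were at hand for 36 of the 45 members, each covering 250 bases before and 50 bases after a gene start. A gene was counted when any of its windows held a match. The half-site stood in 21 of 25 motile axoneme genes (84%) and in 11 of 11 IFT genes, against 52.0% of the 9368 genes of the fold table that had a window. More windows give more chances of a match: 1 of the 25 motile genes (Cfap126), 0 of the 11 IFT genes and 1977 of the 9368 genes had more than 1. It occurred at least 2 times in a window of 7 of the 25 motile genes and of 6 of the 11 IFT genes, against 16.7% of the fold table's genes. The paired motif, GTTNCC followed after any 2 bases by its reverse complement GGNAAC, stood in 0 of 25 motile and 0 of 11 IFT genes, against 0.673% of the fold table's genes. With so low a share, 0 matches in 36 genes tell little. Pairs at other spacings, or with a letter that departs from the motif, were not searched. The Zbbx sequence below holds a pair 1 base apart. The Cfap44 sequence holds gttgctatGGCAAC, which has the 2-base spacing but departs from the motif in 1 letter. The Dnah6 sequence holds gttgctaagcaac, which departs in spacing and in letters. The forkhead core TAAACA, whose matches on either strand cannot overlap those of the half-site, stood in 4 of 25 motile and 2 of 11 IFT genes, against 10.2%. A match is a run of letters and not a bound site. Shown here are the 250 bases before the start of 3 motile axoneme genes with low folds in all 4 mutant mRNA and RPF columns, and of 1 IFT gene. The 3 are not typical of such genes: Cfap46, Cfap100, Cfap206 and Dnah9, also low in all 4, had 1 half-site each in the whole window. Several half-sites were not limited to low genes either. Cfap20, Cfap61, Rsph3a and Rsph3b, which were not low in all 4 columns, had 3 each in the whole window. Capitals mark the half-site on either strand: Cfap44 on chr16:44394549-44394798 (plus strand) has 4, Dnah6 on chr6:73221632-73221881 (minus strand) has 2, Zbbx on chr3:75143773-75144022 (minus strand) has 3 and Ift22 on chr5:136907900-136908149 (plus strand) has 3.
Cfap44: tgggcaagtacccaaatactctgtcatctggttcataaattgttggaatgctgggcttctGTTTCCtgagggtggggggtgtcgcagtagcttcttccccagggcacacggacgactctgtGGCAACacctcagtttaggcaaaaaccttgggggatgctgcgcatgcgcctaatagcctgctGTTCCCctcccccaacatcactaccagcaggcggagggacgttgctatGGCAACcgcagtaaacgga
Dnah6: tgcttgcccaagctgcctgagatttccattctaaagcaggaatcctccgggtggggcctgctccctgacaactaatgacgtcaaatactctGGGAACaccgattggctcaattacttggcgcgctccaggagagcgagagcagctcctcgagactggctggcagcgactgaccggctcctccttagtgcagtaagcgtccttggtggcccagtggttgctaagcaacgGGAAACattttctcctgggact
Zbbx: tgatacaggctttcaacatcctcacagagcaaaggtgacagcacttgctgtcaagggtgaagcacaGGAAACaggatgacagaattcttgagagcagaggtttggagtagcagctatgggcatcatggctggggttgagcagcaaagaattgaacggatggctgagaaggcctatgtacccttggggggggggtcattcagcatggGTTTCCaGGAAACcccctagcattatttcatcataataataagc
Ift22: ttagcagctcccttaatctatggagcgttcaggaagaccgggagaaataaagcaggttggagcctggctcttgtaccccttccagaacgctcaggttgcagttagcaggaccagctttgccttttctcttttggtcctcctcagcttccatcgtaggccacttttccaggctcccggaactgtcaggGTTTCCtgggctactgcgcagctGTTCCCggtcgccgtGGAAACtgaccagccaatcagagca

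After cytokines the motile axoneme genes as a group had lower mRNA and fewer footprints than in untreated mutant cells. Their median mutant mRNA fold was -0.81 at 24 hr (quartiles of the genes -1.40 and -0.38) and -1.18 at 48 hr (-1.74 and -0.31), where all genes had medians of 0.03 and 0.04. Their median RPF fold was -0.95 at 24 hr and -1.16 at 48 hr, against 0.01 for all genes at both times. Fewer cells of a type and less RNA per cell cannot be told apart in such bulk samples. Each comparison is summarised by 1 fold per gene, pooled over replicates and without depth, so no gene was tested and no fold carries an error.

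At a log2 fold of -1 or lower, mutant mRNA at 24 hr placed 12 of the 31 motile axoneme genes, against 7.27% of all genes, and mutant mRNA at 48 hr placed 17, against 8.24%. The RPF columns placed 15 at 24 hr, against 7.9% of all genes, and 17 at 48 hr, against 8.29%. In the same 4 columns 0 motile axoneme genes reached a fold of 1 or higher, where 7.73% of all genes did in mRNA at 24 hr, 8.96% in mRNA at 48 hr, 7.32% in RPF at 24 hr and 7.43% in RPF at 48 hr. Of the 31, 26 had mRNA folds below 0 at 24 hr (46.8% of all genes) and 29 at 48 hr (47%), and 26 were below 0 in all 4 columns (32.3% of all genes). The genes at -1 or lower in all 4 columns numbered 10, or 32.3% of the class, against 5.13% of all genes (626 of 12204).

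**Figure D1:**
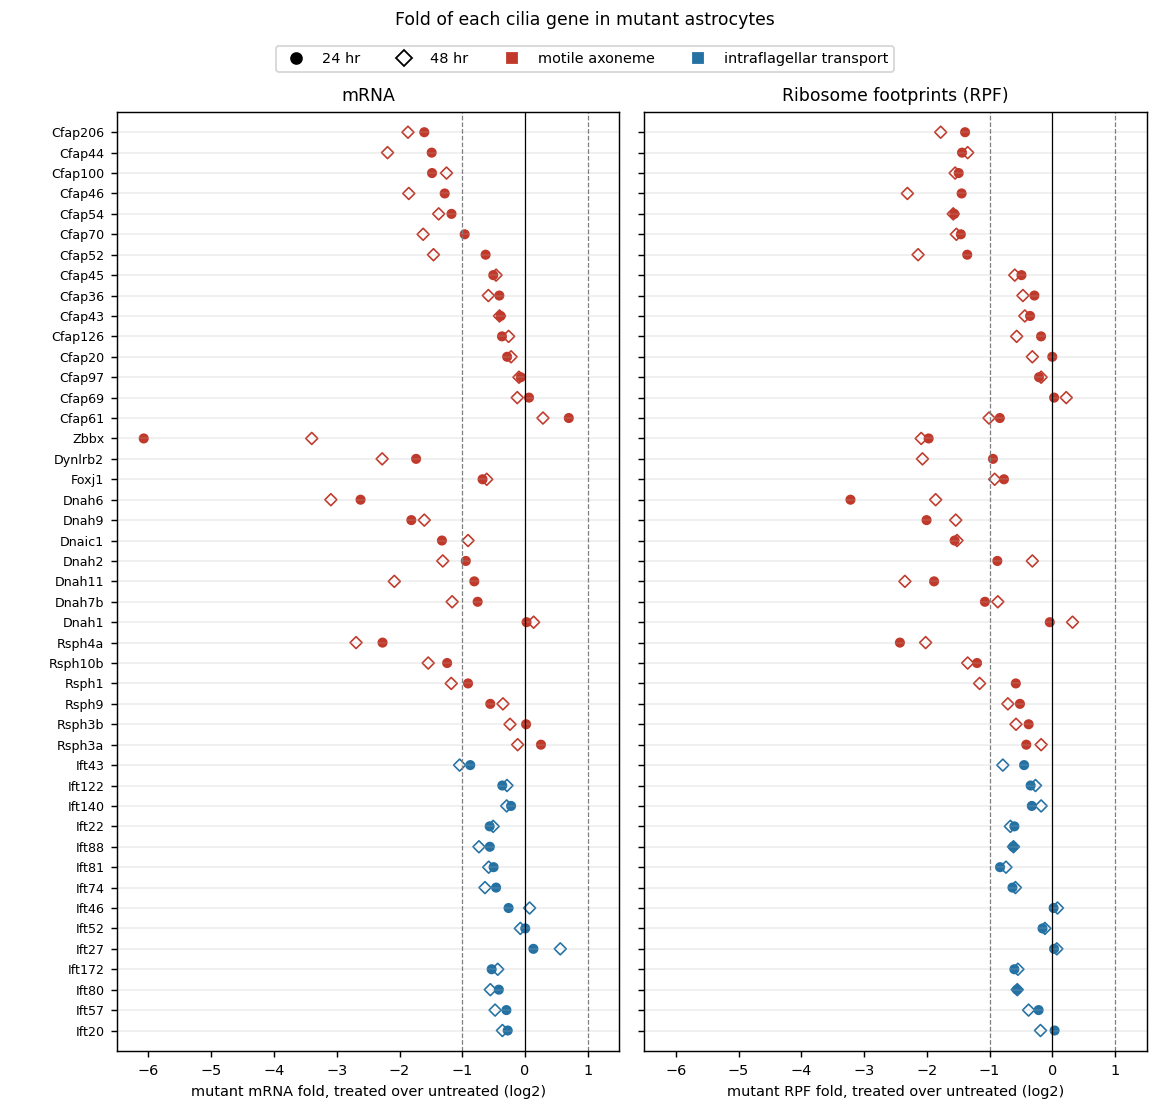
Log2 fold of treated over untreated mutant cells for each of the 45 genes (rows), for mRNA (left panel) and RPF (right panel). Filled circles are 24 hr, open diamonds 48 hr, red the motile axoneme and blue IFT, with dashed lines at -1 and 1. Each point is 1 pooled fold without error; 26 of 31 motile axoneme genes and 10 of 14 IFT genes lie below 0 in all 4 columns, and Zbbx at 24 hr lies farthest left at -6.07.

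Foxj1, the transcription factor that turns on motile ciliogenesis, was itself lower after cytokines. In the authors' deposited table its mutant mRNA folds were -0.68 at 24 hr and -0.61 at 48 hr, and its mutant RPF folds were -0.77 and -0.92. All 4 values lie above -1, closer to 0 than the class medians of mRNA and RPF at 48 hr. Corrected for transcript GC content (the median of each of 20 GC bins subtracted), the mutant mRNA folds of the authors' deposited table were -0.78 at 24 hr and -1.01 at 48 hr, the last of these past -1. Foxj1 lies on chromosome 11, from 116330704 to 116335399 (GRCm38), on the minus strand.

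The axonemal dynein genes, which encode the motors of the beat, had median mutant mRNA folds of -0.94 at 24 hr and -1.31 at 48 hr and median RPF folds of -1.56 and -1.52. Dnah6, an inner arm heavy chain, was lowest of the 7 in mRNA: the authors' deposited table gives -2.62 at 24 hr and -3.09 at 48 hr, with RPF folds of -3.22 and -1.86. Its RPF fold was thus lower than its mRNA fold at 24 hr and higher at 48 hr. Dnah9, a heavy chain of the outer arm, had mRNA folds of -1.81 and -1.61 and RPF folds of -2.01 and -1.54 as listed in the authors' deposited table. All 8 of these values are past -1. Dnah11, another outer arm heavy chain, stood at -0.81 for mRNA at 24 hr and -2.08 at 48 hr per the authors' deposited table, and at -1.89 and -2.35 for RPF. Dnaic1, an intermediate chain of the outer arm, had mRNA folds of -1.32 and -0.91 and RPF folds of -1.56 and -1.52 from the authors' deposited table.

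The other inner arm heavy chains spread further. Dnah2 had mRNA folds of -0.94 at 24 hr and -1.31 at 48 hr, and RPF folds of -0.88 and -0.32, per the authors' deposited table. Dnah7b, which has close paralogs in Dnah7a and Dnah7c so that its reads may be shared, had mRNA folds of -0.76 and -1.16 and RPF folds of -1.08 and -0.87, per the authors' deposited table. Dnah1 was the exception, with mRNA folds of 0.02 and 0.14 and RPF folds of -0.04 and 0.32 as listed in the authors' deposited table. The heavy chains are among the longest coding sequences, with a median coding length of 13068 nt over the 6 Dnah genes, against 1473 nt for the 11992 genes of the table that the annotation covers. Other long genes had folds nearer 0: the 64 other genes with a coding length of 10000 nt or more had median mutant mRNA folds of -0.16 and -0.25. Still, they were low more often than all genes. At both times 10 of 64 were at -1 or lower (7.27% and 8.24% of all genes), and 44 and 43 of 64 were below 0 (46.8% and 47%). That comparison was added with the heavy chains' values in view.

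Radial spoke genes, whose products connect the outer doublets to the central pair, divided by gene. Rsph4a, a spoke head protein, had mRNA folds of -2.27 at 24 hr and -2.69 at 48 hr and RPF folds of -2.43 and -2.02 from the authors' deposited table. Rsph10b, also a spoke head gene, had mRNA folds of -1.24 and -1.54 and RPF folds of -1.20 and -1.35, per the authors' deposited table. Both were past -1 in every one of these columns. Rsph10b shares exon sequence with Pms2 on the same strand, so its reads may be split. Rsph1, another spoke head protein, had mRNA folds of -0.91 and -1.18 and RPF folds of -0.58 and -1.16 as listed in the authors' deposited table, reaching -1 only at 48 hr among these 4 columns. Rsph9, the remaining spoke head gene, stood at -0.55 and -0.35 for mRNA and at -0.52 and -0.71 for RPF in the authors' deposited table. The spoke stalk genes Rsph3a and Rsph3b are near-identical copies, and their separate values are uncertain. Rsph3a had the highest mRNA fold of the spoke genes at 24 hr, 0.25, and -0.12 at 48 hr, with RPF folds of -0.42 and -0.18 from the authors' deposited table. Rsph3b had mRNA folds of 0.02 and -0.24 and RPF folds of -0.38 and -0.58 there, as the authors' deposited table gives them.

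The 15 Cfap genes (cilia and flagella associated proteins) formed a low and a near-zero portion. Their median mutant mRNA folds were -0.51 at 24 hr and -0.58 at 48 hr, where 5 and 7 of the 15 were at -1 or lower (7.27% and 8.24% of all genes), and their RPF medians were -0.84 and -1.01. Cfap206, an axonemal protein at the base of a radial spoke, was lowest in mRNA at 24 hr: the authors' deposited table gives mRNA folds of -1.61 and -1.87 and RPF folds of -1.39 and -1.78. Cfap44, known from the sperm axoneme, had mRNA folds of -1.49 and -2.19 and RPF folds of -1.44 and -1.35, per the authors' deposited table. Cfap46 and Cfap54 belong to the central pair apparatus. For Cfap46 the authors' deposited table gives mRNA folds of -1.28 and -1.85 and RPF folds of -1.45 and -2.31. For Cfap54 the authors' deposited table gives mRNA folds of -1.17 and -1.38 and RPF folds of -1.56 and -1.58. Cfap100, linked to inner dynein arms in the alga Chlamydomonas, had mRNA folds of -1.48 and -1.25 and RPF folds of -1.49 and -1.55 as listed in the authors' deposited table. These 5 were at -1 or lower in all 4 columns.

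Cfap70 and Cfap52 had lower RPF than mRNA folds at 24 hr. Cfap70, an outer arm protein, stood at -0.96 and -1.62 for mRNA and at -1.46 and -1.53 for RPF in the authors' deposited table. Cfap52, which lies inside the doublet microtubules, stood at -0.63 and -1.46 for mRNA and at -1.36 and -2.14 for RPF in the authors' deposited table. The remaining Cfap genes other than Cfap61 (Cfap20, Cfap36, Cfap43, Cfap45, Cfap69, Cfap97 and Cfap126) were between -1 and 1 in all 4 columns. Of these, Cfap20, Cfap36 and Cfap97 are not limited to motile cilia. The highest RPF fold of the 15 at 48 hr, 0.22, was that of Cfap69 in the authors' deposited table.

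Dynlrb2, a dynein light chain of the roadblock type that also serves IFT dynein, had mRNA folds of -1.74 at 24 hr and -2.28 at 48 hr in the authors' deposited table. Its RPF folds there were -0.95 and -2.07, so the RPF fold at 24 hr was the only one of the 4 in the authors' deposited table above -1. Zbbx encodes a protein with a B-box zinc finger. It had the lowest mRNA folds of all 45 genes in the authors' deposited table, -6.07 at 24 hr and -3.40 at 48 hr, with RPF folds of -1.97 and -2.09. No read count stands behind the -6.07 in the files, so its counting error is unknown. Zbbx extends over chromosome 3 from 75037907 to 75165034 (GRCm38), on the minus strand.

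**Figure D2:**
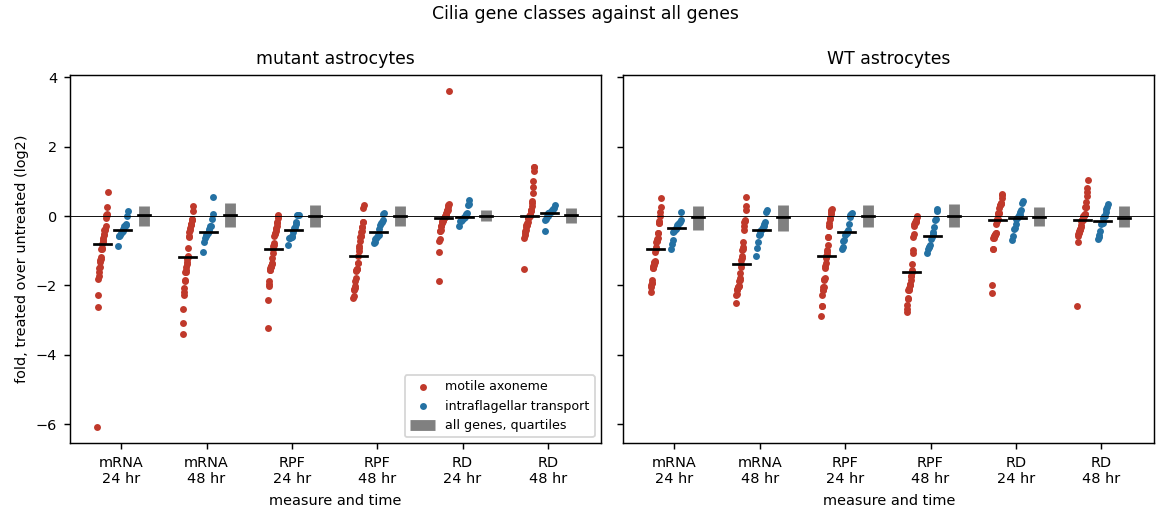
Log2 folds of the motile axoneme genes (red, n = 31) and IFT genes (blue, n = 14) in the 6 mutant columns (left) and the 6 WT columns (right), each point a gene, with black bars for medians. Grey bars span the quartiles of all genes of the column. The motile medians of mRNA and RPF lie between -0.81 and -1.18 in the mutant and between -0.95 and -1.61 in the WT, the IFT medians between -0.34 and -0.56 over both, and the RD medians near 0.

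The IFT genes were lower too, by less. Their median mutant mRNA fold was -0.39 at 24 hr (quartiles -0.53 and -0.27) and -0.46 at 48 hr (-0.57 and -0.29), and their median RPF fold was -0.40 and -0.47. Of the 14, 12 were below 0 in mRNA at each time and 10 in all 4 columns, against 32.3% of all genes. Only 1 of the 14 (7.14%) had a fold of -1 or lower in any of the 4 columns, under the 11.0% of all genes (1348 of 12204). This was Ift43, a small subunit of IFT-A, with mRNA folds of -0.87 at 24 hr and -1.04 at 48 hr and RPF folds of -0.45 and -0.79 from the authors' deposited table. The other IFT-A genes, Ift122 and Ift140, were between -0.36 and -0.18 over the 4 columns of the authors' deposited table.

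Among the 7 core IFT-B genes 4 had lower folds than the other 3. The lower ones were Ift22, a small GTPase, Ift88, whose loss removes cilia in mice, and Ift74 and Ift81, which bind tubulin together. For Ift88 the authors' deposited table gives mRNA folds of -0.56 and -0.73 and RPF folds of -0.63 and -0.62. For Ift22 the authors' deposited table gives mRNA folds of -0.56 and -0.51 and RPF folds of -0.61 and -0.67. Ift81 had mRNA folds of -0.50 and -0.58 and RPF folds of -0.83 and -0.74, per the authors' deposited table. Ift46 and Ift52 were near 0. Ift27, a GTPase that links IFT to the BBSome, had the highest mRNA folds of the class in the authors' deposited table, 0.13 at 24 hr and 0.56 at 48 hr, with RPF folds of 0.03 and 0.07. The 4 peripheral IFT-B genes (Ift20, Ift57, Ift80 and Ift172) had mRNA folds between -0.55 and -0.28 as listed in the authors' deposited table. No test separates IFT from the motile axoneme genes here; at 48 hr 1 of 14 IFT genes (7.14%) and 17 of 31 motile genes had mRNA folds of -1 or lower, against the 8.24% of all genes.

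Most motile axoneme genes had lower mRNA folds at 48 hr than at 24 hr. The 48 hr minus 24 hr difference in mutant mRNA had a median of -0.26 in the motile axoneme genes and was below 0 in 21 of 31, against 49.5% of all genes. Both folds share the untreated libraries, so an odd untreated value moves them together and cancels in this difference. The RPF difference had a median of -0.11 and was below 0 in 20 of 31, against 51.7%. In mRNA, 2 genes differed by 1 or more: Zbbx by 2.68, where 0.549% of all genes were at or above 1, and Dnah11 by -1.27, where 0.869% were at or below -1, both computed from the authors' deposited table. In RPF the 2 were Dnah6 at 1.36 (0.729% of all genes at or above 1) and Dynlrb2 at -1.12 (1.12% at or below -1), computed from the authors' deposited table. The IFT genes had median differences of -0.08 in mRNA and 0.04 in RPF, below 0 in 9 and 4 of 14.

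Footprint folds were set against mRNA folds gene by gene. Across the 31 motile axoneme genes, Pearson's r between the mutant mRNA and RPF folds was 0.68 at 24 hr and 0.82 at 48 hr, and it was 0.83 at 24 hr over the 30 genes without Zbbx. Over all genes it was 0.95 and 0.93. The 2 measures come from portions of the same lysates, and genes are not independent replicates. At 24 hr 11 of 31 motile genes were at -1 or lower in both measures, against 6.11% of all genes, and at 48 hr 15 of 31, against 6.64%.

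**Figure D3:**
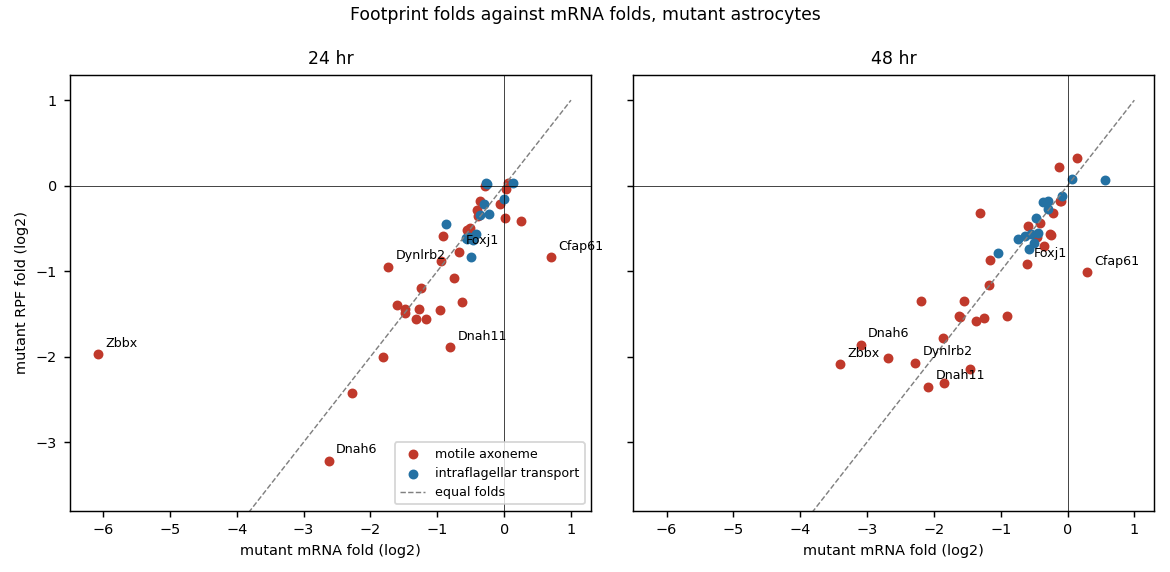
Mutant RPF fold (y axis, log2) against mutant mRNA fold (x axis, log2) at 24 hr (left) and 48 hr (right), each point a gene, red the motile axoneme (n = 31) and blue IFT (n = 14). The dashed line marks equal folds. Zbbx lies far above the line at 24 hr (mRNA -6.07, RPF -1.97), and Cfap61 far below it.

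Ribosome density, footprints relative to mRNA, was near 0 in both classes. Motile axoneme genes had median RD folds of -0.07 at 24 hr and -0.01 at 48 hr, and IFT genes -0.04 and 0.10, where all genes had 0.01 and 0.04. At 24 hr 1 of 31 motile genes was at 1 or higher (0.606% of all genes) and 2 were at -1 or lower (1.1%). At 48 hr 4 had 1 or higher (0.762%) and 1 had -1 or lower (1.24%). As RPF fold minus mRNA fold, 2 of the 31 had 1 or higher at 48 hr (0.508%) and 1 had -1 or lower (1.35%). No IFT gene reached 1 in either direction at either time. The sources used here do not say how the authors computed RD, and its r with the difference of RPF and mRNA folds was 0.94 and 0.90 over the 31 motile genes.

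Zbbx had an RD fold of 3.60 at 24 hr, the highest of the 12205 genes in that column of the authors' deposited table, and 1.41 at 48 hr. Its RPF fold minus its mRNA fold, computed from the authors' deposited table, was 4.10 and 1.31. Dnah6 and Dnah2 had RD folds of 1.40 and 1.31 at 48 hr, against -0.44 and 0.06 at 24 hr, per the authors' deposited table. The 6 heavy chains had a median RD fold of -0.11 at 24 hr and 0.70 at 48 hr, with 3 of 6 at or above 1 at 48 hr. As RPF fold minus mRNA fold, the same 6 had medians of -0.26 and 0.24, with 1 of 6 at or above 1 at 48 hr. The 64 other genes with a coding length of 10000 nt or more had median RD folds of 0.06 and 0.29, with 2 of 64 at or above 1 at 48 hr, and median RPF minus mRNA folds of 0.01 and 0.21.

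The RD fold of Dnah11 did not follow its parts. The authors' deposited table gives an RD fold of 0.14 at 24 hr and 1.02 at 48 hr, while the RPF fold minus the mRNA fold was -1.08 and -0.27. Dnah11 was the only one of the 45 genes for which the 2 quantities differed by 1 or more, as 0.254% of all genes did at each time. Its exons overlap those of Cdca7l, on the opposite strand, by up to 642 nt, and the sources used here do not say whether counting used strand.

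Cfap61, which belongs to a complex at the radial spoke base, had higher mRNA and lower footprints. Its mRNA folds were 0.70 at 24 hr, the highest of the motile class, and 0.29 at 48 hr, its RPF folds -0.84 and -1.01, with RD folds of -1.89 and -1.53 from the authors' deposited table. The WT columns had the same pattern, with mRNA folds of 0.52 and 0.54, RPF folds of -1.13 and -1.55, then RD folds of -2.21 and -2.60, per the authors' deposited table. An exon of Cfap61 overlaps Crnkl1, a splicing factor gene on the opposite strand, by 57 nt, and the part of that overlap in these values was not tested. Rsph3a had an RD fold of -1.04 at 24 hr and -0.07 at 48 hr in the authors' deposited table.

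**Figure D4:**
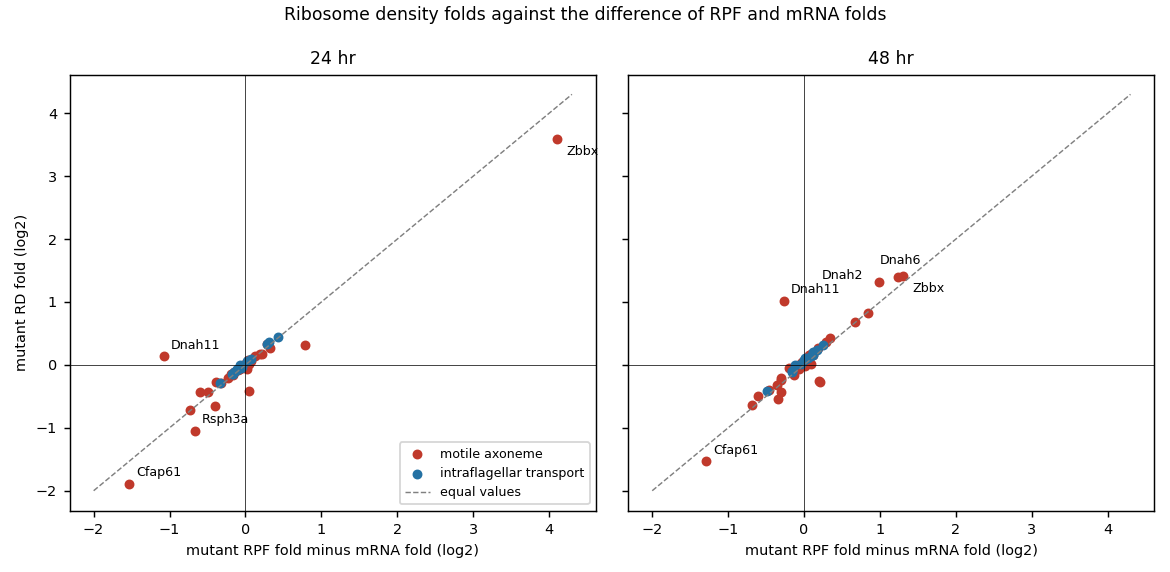
Mutant RD fold (y axis, log2) against the RPF fold minus the mRNA fold (x axis, log2) at 24 hr (left) and 48 hr (right), each point a gene, red the motile axoneme (n = 31) and blue IFT (n = 14). The dashed line marks equal values. Dnah11 lies off the line at both times (RD 0.14 against -1.08, and 1.02 against -0.27), and Zbbx and Cfap61 mark the extremes.

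The motile axoneme genes were low after cytokines in both genotypes. Median mRNA folds were -0.81 and -1.18 in the mutant, against -0.95 and -1.39 in the WT, and median RPF folds were -0.95 and -1.16 in the mutant, against -1.16 and -1.61 in the WT. In mRNA at 24 hr 12 mutant and 15 WT folds were at -1 or lower (7.27% and 9.55% of all genes), with 11 genes in both sets, which is 91.7% of the mutant set and 73.3% of the WT set. Over all genes the shared set was 85.3% of the mutant set and 64.9% of the WT set. At 48 hr there were 17 mutant and 19 WT folds (8.24% and 10.3%), with 15 in both, which is 88.2% and 78.9% of the sets, against 76.5% and 61.2% over all genes. In RPF the sets were 15 mutant and 18 WT at 24 hr (7.9% and 8.7%), and 17 mutant and 19 WT at 48 hr (8.29% and 8.71%). The whole mutant RPF set lay in the WT set at each time, against 83.2% and 81.5% of the mutant set over all genes. In all 8 columns 9 genes were at -1 or lower, against 4.22% of all genes: Cfap44, Cfap46, Cfap54, Cfap100, Cfap206, Dnah6, Dnah9, Rsph4a and Rsph10b.

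The mutant minus WT difference had motile medians of 0.17 and 0.01 in mRNA (0.13 and 0.14 after correction for transcript GC content) and 0.08 and 0.24 in RPF, and IFT medians of 0.07 and 0.08 in mRNA and 0.02 and 0.15 in RPF. Across the motile genes r between mutant and WT folds was 0.46 and 0.79 in mRNA, and 0.90 and 0.81 without Zbbx. In RPF it was 0.90 and 0.86 with all 31. Over all genes it was 0.94 and 0.89 in mRNA and 0.95 and 0.94 in RPF.

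In mRNA and RPF, 3 members differed by 1 or more between the genotypes: Foxj1, Zbbx and Dnah2. Foxj1 had mRNA folds of -0.68 and -0.61 in the mutant, against -1.41 and -1.84 in the WT, differences of 0.73 and 1.23 as listed in the authors' deposited table (7.38% of all genes were at or above 1 at 48 hr). The Foxj1 transcript has 61.4% GC, and with folds corrected for transcript GC content the differences from the authors' deposited table came to 0.13 and 0.17. Its RPF folds were -0.77 and -0.92 in the mutant, against -0.83 and -1.07 in the WT, in the authors' deposited table. Zbbx had mRNA folds of -6.07 and -3.40 in the mutant, against -0.49 and -2.06 in the WT, in the authors' deposited table. The difference at 24 hr, -5.58, was the lowest of 12204 genes (0.352% were at or below -1), and that at 48 hr was -1.34 (0.705%), both from the authors' deposited table. After the GC correction the Zbbx mRNA difference was -5.38 and, at 48 hr, -0.97, which is no longer past -1, computed from the authors' deposited table. In RPF, Zbbx had -1.97 and -2.09 in the mutant, against -2.59 and -2.77 in the WT, in the authors' deposited table, so its footprints were lower after cytokines in both genotypes. Dnah2 had RPF folds of -0.88 and -0.32 in the mutant, against -2.12 and -1.72 in the WT, differences of 1.25 and 1.40 from the authors' deposited table (0.868% and 0.934% of all genes at or above 1). Its mRNA folds were -0.94 and -1.31 in the mutant, against -1.51 and -1.26 in the WT, in the authors' deposited table.

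In RD more members differed between the genotypes. At 24 hr 1 of 31 motile genes had a mutant minus WT RD difference at or above 1 (1.44% of all genes) and 1 at or below -1 (2.93%), which were Zbbx at 5.58 and Rsph3b at -1.02 from the authors' deposited table. At 48 hr 5 reached 1 or more (3.21%) and 2 reached -1 or less (7.74%). Those above, computed from the authors' deposited table, were Zbbx at 1.80, Dnah2 at 1.67, Dnah6 at 1.33, Rsph4a at 1.19 and Cfap61 at 1.07. Below were Cfap126 at -1.48 and Rsph9 at -1.12, also from the authors' deposited table. After the GC correction 2 motile genes, Zbbx at 1.25 and Dnah2 at 1.78, stayed at or above 1 at 48 hr (1.89% of all genes), and 1, Cfap126 at -1.11, at or below -1 (2.45%), computed from the authors' deposited table. At 24 hr the same correction left Zbbx, at 5.27, at or above 1 (1.06%). It left 0 motile genes at or below -1 (1.55%), with Rsph3b at -0.98, computed from the authors' deposited table.

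**Figure D5:**
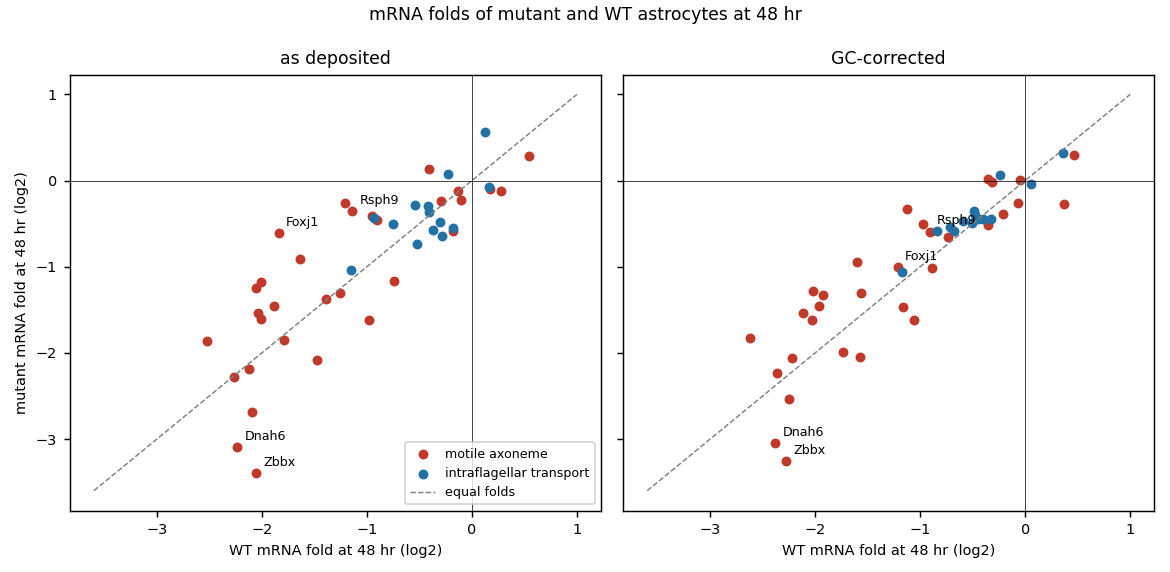
Mutant mRNA fold (y axis, log2) against WT mRNA fold (x axis, log2) at 48 hr, as deposited (left) and corrected for transcript GC content (right), each point a gene, red the motile axoneme (n = 31) and blue IFT (n = 14). The dashed line marks equal folds. Foxj1 lies 1.23 above the line as deposited and 0.17 above it after the correction.

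Other genes of the motile cilium had like values. Of 61 listed symbols, 36 had a row, with median mutant mRNA folds of -0.82 at 24 hr and -0.90 at 48 hr, and 13 and 16 of 36 at -1 or lower (7.27% and 8.24% of all genes). The lowest at 24 hr were Mns1, a protein inside doublet microtubules, Ccdc39, a ruler for spoke spacing, the adenylate kinase Ak7, and Enkur, at -2.01, -1.66, -1.60 and -1.60, per the authors' deposited table. Their RPF medians were -0.80 and -1.03, with 16 and 19 of 36 at -1 or lower (7.9% and 8.29% of all genes).

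Genes of the primary cilium had values nearer those of IFT. The other IFT subunits and motors (18 of 21 listed) had median mutant mRNA folds of -0.36 and -0.33, with Dync2h1, the retrograde IFT motor, lowest at 24 hr at -0.88 and at -1.21 at 48 hr per the authors' deposited table. The 10 genes of the BBSome, the membrane cargo adaptor, had medians of -0.36 and -0.51, and the 20 of the transition zone, the gate at the ciliary base, -0.41 and -0.61. At 24 hr 0 of 10 and 1 of 20 were at -1 or lower, both shares under the 7.27% of all genes, the last being Tmem231 at -1.28 in the authors' deposited table. Most were below 0. At 24 hr these were 15 of the 18 other IFT genes, 8 of 10 BBSome genes and 18 of 20 transition zone genes (46.8% of all genes). At 48 hr they were 15, 10 and 18 (47%). Of 15 listed RFX factors and other candidate regulators of ciliogenesis 8 had a row. Their medians of -0.03 and 0.10 cover folds of both signs, with 4 of 8 below 0 at each time (46.8% and 47% of all genes). Rfx4 was the only one at -1 or lower in mRNA, with -1.69 and -1.89 as listed in the authors' deposited table. There Rfx2 had -0.81 and -0.79 and Rfx3 -0.31 and -0.91. Rfx5 was highest at 0.58 and 0.57, and Rfx7 had 0.19 and 0.20, per the authors' deposited table.

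Markers of brain cells with motile cilia, and of other cells a culture could hold, were looked up too. Of 10 ependymal markers 3 had a row, and 2 of these, Foxj1 and Dynlrb2, are members already described. The third, Rarres2, had mRNA folds of 1.52 and 0.72 from the authors' deposited table. Of 8 markers of choroid plexus epithelium 5 had a row, with median mRNA folds of -0.95 at 24 hr and -1.77 at 48 hr and 2 and 4 of 5 at -1 or lower (7.27% and 8.24% of all genes), among them Folr1 at -2.41 and -2.64 and Clic6 at -2.26 and -1.77, per the authors' deposited table. Ttr, the lowest of the 5 at 48 hr, had -0.76 and -3.27 in the authors' deposited table. Astrocyte markers (10 of 10) had medians of -0.57 and -0.69 with 3 of 10 at -1 or lower (7.27% and 8.24% of all genes) and 1 of 10 at 1 or higher (7.73% and 8.96%) at each time. The 3 low ones were Aldoc at -2.16 and -2.50, Gfap at -1.58 and -1.60 and S100b at -1.11 and -2.21, per the authors' deposited table. Slc1a2, a glutamate transporter, was the high one, with 1.99 and 1.90 per the authors' deposited table. Microglia markers (3 of 8) had 1.16 and 1.18, and fibroblast and mural markers (7 of 7) 0.16 and -0.37, with 3 of 7 at or above 1 (7.73% and 8.96% of all genes) and 1 of 7 at or below -1 at each time. These 7 spread widely, with Dcn at 4.60 and 5.95, Lum at 3.47 and 3.72 and Acta2 at -2.81 and -3.46, per the authors' deposited table. The highest of the 5 choroid plexus markers was Prlr, at -0.32 and 0.42 per the authors' deposited table. The table gives folds and no levels, and the part of other cell types in the cilia folds was not tested.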

How the data were processed

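RNA-seq and Ribo-seq of 18 mutant astrocyte libraries were deposited as processed tables. Per the file headers, the main table gives the authors' log2 fold of treated over untreated cells, pooled over replicates. The authors' IS score and their signal column, the density of elongation reads per transcript, come from another table of mutant cells at 0 hr and 24 hr, per the file headers. Alignment and counting tools named in the submitters' processing notes are TopHat2 and featureCounts, with build mm10. The program behind the folds, its normalization and how RD was made are not given in the sources used here. With 1 pooled fold per gene there are no counts, no depth and no replicate spread, so no test was run, and a log2 fold of 1 in either direction was used as a descriptive threshold.

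The members and the gene lists were chosen with earlier results of these data known, and so were the motifs. Named are Foxj1, Zbbx and Dynlrb2, members at or beyond 1 in mutant mRNA, RPF or RD or in a difference between times or genotypes, the highest and lowest of each class, and up to 4 genes per list. Some further members were named after their values were seen. The mutant RPF folds at 48 hr have 2 decimals, and 1 gene lacked a mutant fold. Coordinates, coding lengths and GC content came from GENCODE M21 (GRCm38, the assembly of mm10), using the coding transcript with the longest coding sequence. Promoter windows came from RefSeq, build GRCm38.p6; Cfap54, Cfap97, Foxj1, Ift122, Ift80, Ift81, Rsph1, Rsph10b and Rsph4a had none. Calculations used Python 3.11.15, pandas 2.3.3, numpy 2.4.6 and matplotlib 3.10.9, and the summaries were tested on simulated data. Alternatives were a centred column, a GC correction, other class borders, another threshold and the RPF minus mRNA fold in place of RD.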

Additional observations from a re-analysis of the deposited data

How the results depend on the processing

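The 2 classes had 88 alternative medians. They came from subtracting the column median, the GC correction, a narrower motile set without Cfap20, Cfap36 and Cfap97, or Dynlrb2 counted with intraflagellar transport. Further ones took RPF fold minus mRNA fold in place of RD, or left out Zbbx, the last chosen after seeing the data. All 88 lay within the order-statistic interval of the members around the reported median. That interval spans genes, which are no replicates, so lying inside it says little. The IFT median RD fold at 48 hr changed sign inside it, from 0.10 as deposited to -0.04 after the GC correction. The narrower motile set of 28 genes had lower medians. Its mutant mRNA medians were -0.93 at 24 hr and -1.28 at 48 hr, against -0.81 and -1.18 for the 31. Its mutant RPF medians were -1.14 and -1.35, against -0.95 and -1.16. Counts depended on the threshold. At -0.5 or lower the mutant mRNA count at 24 hr was 21 of 31 motile axoneme genes in place of 12, and the IFT counts were 5 of 14 at 24 hr in place of 0 and 6 of 14 at 48 hr in place of 1, where 16.7% and 17.6% of all genes were at -0.5 or lower. For single genes, in alternatives added after seeing the data, the RD fold of Dnah11 at 48 hr, 1.02 in the authors' deposited table, became -0.27 as RPF fold minus mRNA fold, and the Foxj1 mRNA difference of mutant minus WT at 48 hr, 1.23 from the authors' deposited table, became 0.17 after the GC correction. That correction also moved the mutant Foxj1 mRNA fold at 48 hr past -1 (-1.01) and the Zbbx mRNA difference at 48 hr inside it (-0.97), from the authors' deposited table. The cause was not tested in any of these cases. No paired analysis was possible because each column holds a single pooled fold per comparison, with no value for batches A, B and C, and for the same reason no replicate could be left out. Depth is unknown, so counting error cannot be set beside any fold.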

Other observations

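Hedgehog signalling runs through the primary cilium, where IFT and the BBSome move its receptors. Of 17 listed pathway genes 16 had a row, with median mutant mRNA folds of -0.38 at 24 hr and -0.35 at 48 hr, and 3 and 2 of 16 at -1 or lower (7.27% and 8.24% of all genes) and 0 and 2 at 1 or higher (7.73% and 8.96%). Gli1, a transcription factor and itself a target of the pathway, had mRNA folds of -2.04 and -2.59 and RPF folds of -2.25 and -2.86 as listed in the authors' deposited table. Gli2, the main activator, had mRNA folds of -1.39 and -1.56 from the authors' deposited table. The last of the 3 at -1 or lower at 24 hr was Hhip. It had mRNA folds of -1.28 and -0.91 and RPF folds of -1.41 and -0.84, per the authors' deposited table. Sufu, the inhibitor that holds Gli proteins, stood at 0.82 at 24 hr and 1.20 at 48 hr per the authors' deposited table. Disp1, which releases the ligands, stood at 0.78 and 1.09, and Ptch1, the receptor and another target, at 0.22 and -0.21, per the authors' deposited table.

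The authors' IS score, which the file does not spell out, was present for 3 of 31 motile axoneme genes (Foxj1, Cfap20 and Cfap97) and 8 of 14 IFT genes, against 18.8% of all genes. The score at 24 hr was below that at 0 hr in 3 of 3 motile genes and in 4 of 7 IFT genes, leaving out Ift172, whose score is 0 at both times, against 65.4% of the 2201 transcripts of all genes whose score is above 0 at 1 time or both.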
